A study of Mus musculus with 40 samples.

Results

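The comparison is the step from 6 h to 12 h of lipopolysaccharide (LPS) in macrophages that lack the deubiquitinase gene Otulin. It sets the 4 libraries labelled Otulin knock-out at 12 h (KO 12 h) against the 4 labelled knock-out at 6 h (KO 6 h), chosen by their titles alone, 8 of the 40 libraries in the series. All 8 are primary bone marrow-derived macrophages of mice with the genotype OtulinFL/FL LysMCreTg/WT, and all were exposed to 500 ng/ml of ultrapure LPS from Salmonella minnesota. The floxed Otulin gene is removed by Cre recombinase under the LysM promoter, which is active in macrophages and neutrophils. The marrow cells matured over 6 days in IMDM with 30% L929-conditioned medium, which supplies M-CSF, the growth factor of macrophages. Wild type (WT) macrophages with the genotype OtulinFL/FL and no Cre, 4 at 12 h and 4 at 6 h of the same LPS, serve only to ask whether the step differs without Otulin. No group carried Cre without a floxed gene, so between genotypes loss of Otulin and presence of Cre cannot be told apart. Neither strain nor age is among the labels.

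LPS is a bacterial cell wall component that macrophages sense through the receptor TLR4. Within minutes the adaptor MyD88 drives the transcription factors NF-κB and AP-1, which switch on cytokine and chemokine genes, and the adaptor TRIF drives interferon beta, which then acts back on the cell through STAT and IRF factors. In the hours that follow, inhibitors made by the same programme (IκB proteins, A20, SOCS proteins, RNA-binding proteins that degrade cytokine messages) shut much of it down, while the cell pauses division and rebuilds its metabolism. Otulin removes linear ubiquitin chains, which the LUBAC complex attaches to proteins of the TLR and TNF receptor pathways.

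RNA was counted at the 3′ end of transcripts, with totals of 4290997 to 5264452 counts in KO 12 h and 3615155 to 5213901 in KO 6 h. Values below are CPM, counts scaled to a common library size, for replicates 1 to 4 in that order where 4 are given, and a gene is said to have risen or fallen where the 12 h minus 6 h log2 difference passed edgeR's quasi-likelihood test at an adjusted p of 0.05. Differences carry a standard error (SE), with n = 4 libraries per group. Macrophage genes were abundant in all 8 libraries. Adgre1, which encodes F4/80, lay at 693 to 1058 CPM in KO 12 h and 549 to 619 CPM in KO 6 h, and the lysosomal Cd68 at 582 to 682 CPM in KO 12 h and 564 to 641 CPM in KO 6 h. Replicate 3 stood apart by sex. The X-inactivation RNA Xist lay at 0.250 CPM in replicate 3 of KO 12 h and 1.15 CPM in replicate 3 of KO 6 h, against 260.5 to 462 CPM in the other 6 libraries, so that each group held 1 male and 3 female libraries by this measure. On principal components of all 40 libraries, the second (25.3% of the variance) held KO 12 h at 21.8 to 29.0 and KO 6 h at -42.4 to -38.5, and the first (47.0%) held KO 12 h at 39.2 to 51.3 and KO 6 h at 48.0 to 49.6. Otulin itself was counted at 32.8, 34.4, 27.5 and 36.6 CPM in KO 12 h and 33.4, 29.4, 28.9 and 32.2 CPM in KO 6 h (log2 difference 0.08 ± 0.12, adjusted p = 0.609). The exons removed by Cre are not named in the labels. Tags from the 3′ end may lie outside them, so the level of Otulin is no check of its deletion.

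Genes of the inflammatory, interferon, ribosome and mitosis lists fell between 6 h and 12 h more often than genes at large, and those of the circadian clock, NRF2 and heat shock lists rose more often. Of 12037 genes tested, 5391 changed (44.8%), 2737 upwards (22.7%) and 2654 downwards (22.0%). A change of at least 2-fold was reached by 942 genes that rose (7.83%) and 650 that fell (5.4%). Counts over a list are to be read against these shares, since a list with about 22.7% of its members up or 22.0% down did as all genes did. In 4265 of the 5391, the 4 values of KO 12 h did not overlap those of KO 6 h. These genes were called on the same libraries, so this count is no separate support for the calls. The median over all genes tested was a log2 difference of 0.01. Scaling by library totals alone, without the TMM factors that assume most genes stay level, moved that median to 0.14 and the share of rises among the calls to 65.0%, against 50.8% with TMM. Small differences are therefore less certain in direction than large ones.

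**Figure D1:**
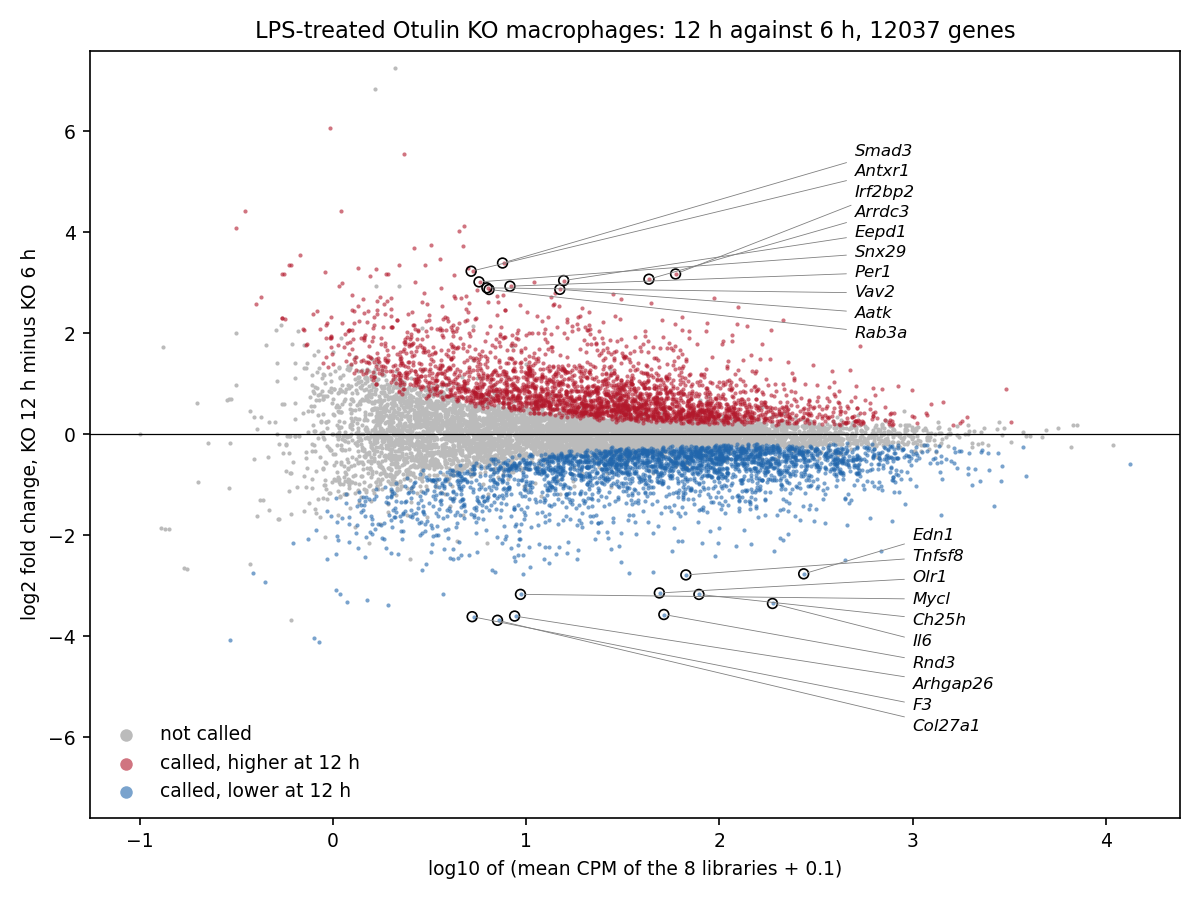
Log2 difference between KO 12 h and KO 6 h (vertical axis) against the log10 of the mean CPM over the 8 libraries plus 0.1 (horizontal axis), one point for each of the 12037 genes tested. Genes that rose and genes that fell are coloured, and the 10 highest and 10 lowest among those named by rule are labelled; rises and falls are near equal in number, 2737 and 2654.

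Each gene's earlier behaviour was read from KO cells at 3 h against 0 h, a comparison that shares no library with the step from 6 h to 12 h although all are in the same fit. Of the 2756 genes that had risen at 3 h (22.9% of those tested), 1165 fell between 6 h and 12 h (42.3%) and 334 rose further (12.1%). Of the 3097 that had fallen at 3 h (25.7%), 1474 rose (47.6%) and 249 fell further (8.04%). Among the 6184 genes not called at 3 h, 929 rose (15.0%) and 1240 fell (20.1%). The median log2 differences of the 3 classes were -0.24, 0.47 and -0.04. With TMM factors the step thus ran against the early response more often than along it, while 1257 of the early risers and 1374 of the early fallers were not called in either direction. With library totals alone, 675 of 1673 early risers fell and 2561 of 6201 early fallers rose.

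Cytokine messages were among those that fell most. Il6, a cytokine that drives the acute phase response and the lowest of its list, is shown with its promoter, which holds an NF-κB motif. The sequence is RefSeq's for GRCm38.p6, chr5:30012864-30013163, plus strand, from 250 bases before to 50 after the transcription start. Capitals mark the only match to the NF-κB motif, searched on both strands as GGGAA, any base, TTCC or as GGGA, any base, TTTCC, which begins 44 bases before the start.
Il6: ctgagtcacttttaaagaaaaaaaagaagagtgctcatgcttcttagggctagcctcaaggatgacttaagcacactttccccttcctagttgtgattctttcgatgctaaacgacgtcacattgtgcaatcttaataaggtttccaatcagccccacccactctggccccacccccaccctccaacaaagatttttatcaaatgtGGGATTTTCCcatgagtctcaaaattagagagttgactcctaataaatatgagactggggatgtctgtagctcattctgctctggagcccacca
The motif was found in 2 of the 12 promoters of tested cytokine genes that the RefSeq table holds (16.7%), against 0.751% of the 27025 genes in that table and 0.911% of the 8785 tested genes it holds. A match is a string of letters and does not show that a factor binds.

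Il6 had 32.6, 35.4, 21.5 and 44.5 CPM in KO 12 h, against 296, 300.1, 357 and 418 CPM in KO 6 h. Every 12 h library lay far below every 6 h library, with a log2 difference of -3.35 ± 0.20 (SE; adjusted p = 4.46e-11). In the full KO course Il6 averaged 0.0927, 272, 343, 33.5 and 9.17 CPM at 0, 3, 6, 12 and 24 h. Tnf, the cytokine that signals through the linear-ubiquitin-dependent TNF receptor, had 290.3, 249, 263 and 327 CPM in KO 12 h and 578, 668, 659.8 and 663 CPM in KO 6 h. Every 12 h value was below the lowest at 6 h (-1.19 ± 0.094, adjusted p = 5.34e-10). Il1b, the pyrogenic cytokine released by inflammasomes, had 452, 484, 465 and 715 CPM in KO 12 h and 985, 1206, 1052 and 1446 CPM in KO 6 h (-1.15 ± 0.23, adjusted p = 0.000574). Replicate 4 was the highest at both times, and no 12 h value reached the 6 h range. Of 17 cytokine genes tested, 12 fell and 1 rose, with a median log2 difference of -1.47, against 22.0% lower, 22.7% higher and a median of 0.01 over all genes tested. Beyond these 3, the falls included Il27 (-2.16 ± 0.15), which restrains T cells, Tnfsf15 (-2.10 ± 0.14), a TNF relative, and the alarmin Il33 (-1.64 ± 0.29). The anti-inflammatory Il10 went the same way, with 14.7 to 21.4 CPM in KO 12 h and 42.8 to 73.6 CPM in KO 6 h (-1.60 ± 0.25). So did the growth factors Csf1 (-1.51 ± 0.11) and Il15 (-1.50 ± 0.11). The member that rose was Ebi3, a subunit that pairs with the Il27 product (0.45).

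Chemokines, which draw leukocytes into tissue, were followed next. Of 20 tested, 10 fell and 0 rose, with a median of -0.59. Ccl3 had 248, 199.8, 213 and 249 CPM in KO 12 h and 1096, 1122, 1202 and 1127 CPM in KO 6 h (-2.32 ± 0.10, adjusted p = 3.08e-14), and its neighbour in function Ccl4 had 343 to 391 CPM in KO 12 h and 1108 to 1248 CPM in KO 6 h (-1.72 ± 0.095). Both are macrophage inflammatory proteins, and neither pair of groups came near overlapping. Cxcl10, an interferon-induced attractant of T cells, lay at 1580, 1352, 1522 and 1304 CPM in KO 12 h and 3499, 3857, 3897 and 4152 CPM in KO 6 h (-1.42 ± 0.11). The neutrophil attractant Cxcl1 had passed its peak of 320.3 CPM at 3 h before the interval began. It had 31.1, 29.1, 15.8 and 16.8 CPM in KO 12 h and 65.1, 46.8, 62.2 and 25.4 CPM in KO 6 h, so its groups overlapped through replicate 4 of 6 h (-1.10 ± 0.28, adjusted p = 0.00349). Among the 10 not called were Ccl5 (0.25) and Cxcl9 (0.42). The 0 in the upward direction turned to 1 or 2 under several other settings, among them 1 without replicate 4 of KO 12 h.

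Of the receptors for cytokines and chemokines, 30 were tested, of which 11 rose and 5 fell (median 0.13). Il6st, the gp130 chain shared by receptors of the IL-6 family, had 123, 122, 129.8 and 109 CPM in KO 12 h and 49.8, 53.5, 41.6 and 54 CPM in KO 6 h (1.28 ± 0.11, adjusted p = 1.77e-09). Its partner Il6ra rose to 34.5 to 44.5 CPM in KO 12 h, against 16.9 to 24 CPM in KO 6 h (1.00 ± 0.17). For both chains of the IL-6 receptor the groups were apart, while the ligand's message fell by 3.35. Il1r1, the signalling receptor for IL-1, stayed low at 5.47 to 6.87 CPM in KO 12 h and 1.43 to 2.76 CPM in KO 6 h (1.50 ± 0.35), and Il12rb1 rose by 0.85 ± 0.15. Ccrl2, a decoy-type chemerin receptor, was the largest fall of the list (-1.47 ± 0.14).

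**Figure D2:**
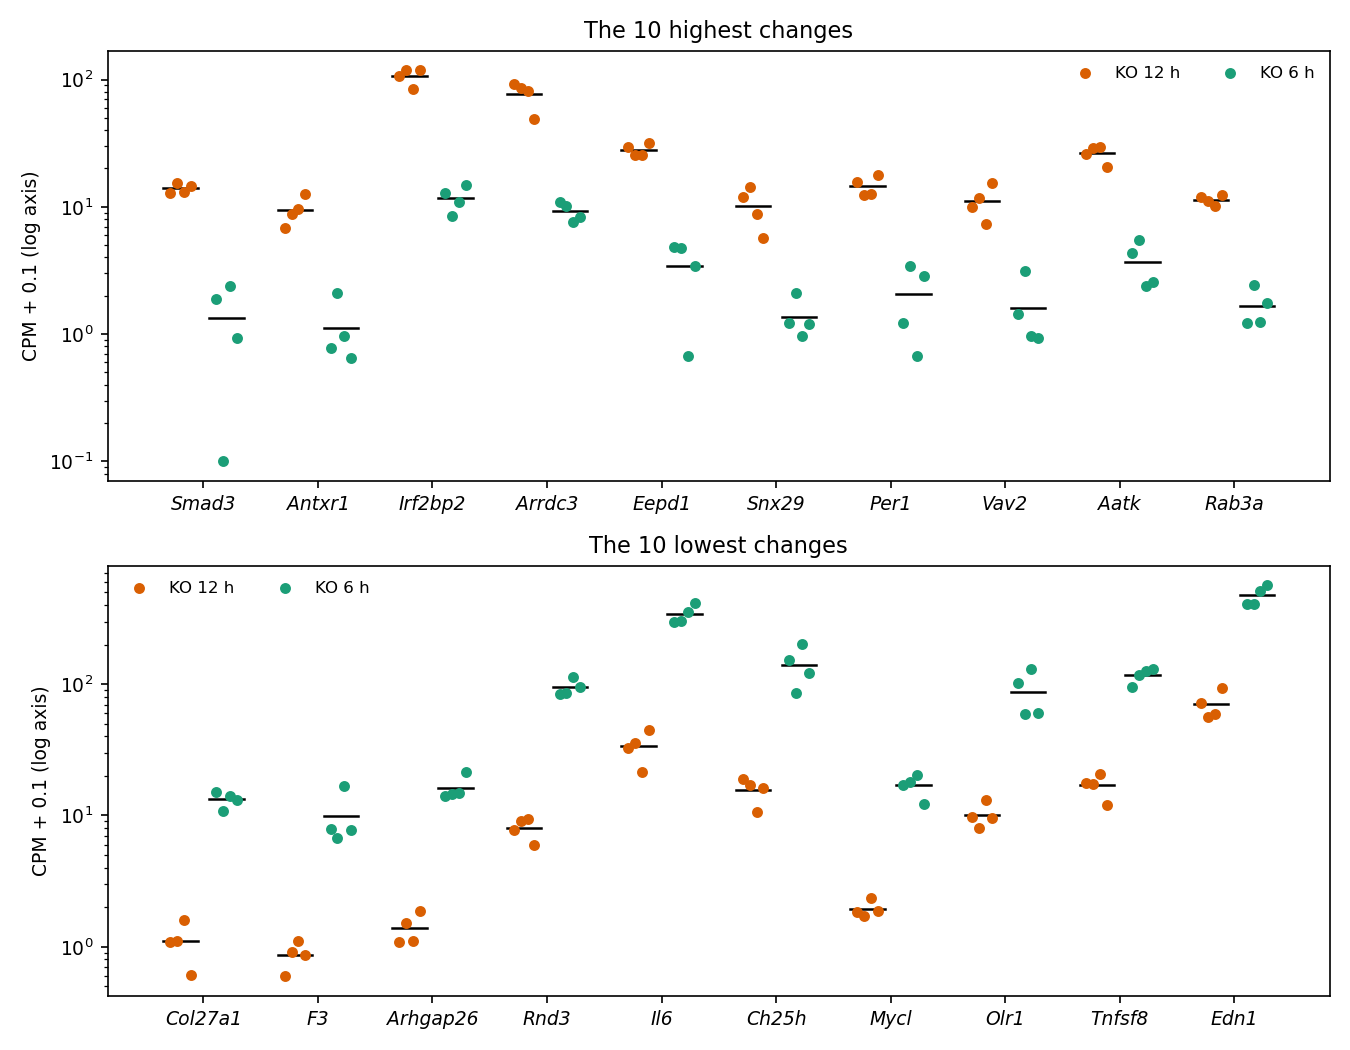
CPM plus 0.1 on a log axis in each library of KO 12 h (left of each pair) and KO 6 h (right) for the 10 genes with the lowest and the 10 with the highest log2 differences by the naming rule; points are libraries and short bars are group means. In all 20 genes the 4 values of the groups do not overlap, as the rule requires.

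The naming rule asks for a mean of at least 5 CPM and groups that do not overlap. Its 10 lowest genes were Col27a1, F3, Arhgap26, Rnd3, Il6, Ch25h, Mycl, Olr1, Tnfsf8 and Edn1, with differences from -3.69 to -2.77. Edn1, which encodes the vasoconstrictor endothelin 1, had 72.4, 56.2, 58.8 and 93 CPM in KO 12 h and 411, 407, 516 and 567 CPM in KO 6 h (-2.77 ± 0.17, adjusted p = 2.08e-11). Rnd3, a small GTP-binding protein that lowers actin contractility, had 5.85 to 9.25 CPM in KO 12 h and 84.8 to 114 CPM in KO 6 h (-3.57 ± 0.16). F3, tissue factor, the initiator of coagulation, had 0.498, 0.809, 1.00 and 0.762 CPM in KO 12 h and 7.85, 6.69, 16.6 and 7.72 CPM in KO 6 h (-3.61 ± 0.39). Replicate 3 of KO 6 h was the high value there, and 12 h stayed below the lowest of the others. Ch25h makes 25-hydroxycholesterol, an antiviral oxysterol, and had 10.5 to 18.9 CPM in KO 12 h and 85.6 to 204 CPM in KO 6 h (-3.17 ± 0.23). Col27a1, a fibrillar collagen gene, had its highest mean at 3 h, with 0.280, 37.6, 13.2, 1.00 and 0.189 CPM at 0, 3, 6, 12 and 24 h.

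In the NF-κB pathway and its feedback inhibitors, 14 of 28 genes fell and 2 rose (median -0.31). Nfkbiz, an IκB family member needed for secondary genes such as Il6, had 79.4, 85.9, 79.8 and 71.2 CPM in KO 12 h and 329, 314, 351 and 329 CPM in KO 6 h (-2.06 ± 0.089, adjusted p = 3.08e-14). Tnfaip3, the feedback inhibitor A20 that binds linear ubiquitin, had 108, 93.8, 61.3 and 132 CPM in KO 12 h and 305, 236, 333 and 319 CPM in KO 6 h (-1.59 ± 0.17). The subunit genes Rel (-1.47 ± 0.11) and Nfkb1 (-1.32 ± 0.13) fell too, as did the classic inhibitor gene Nfkbia (-0.70 ± 0.11), which stayed abundant at 1803 to 1991 CPM in KO 12 h and 2761 to 3271 CPM in KO 6 h. Activators and inhibitors thus fell side by side. Map3k14, which encodes the NIK kinase of the alternative pathway, rose to 9.91 to 14.9 CPM in KO 12 h, against 3.03 to 5.61 CPM in KO 6 h (1.42 ± 0.20). The other riser, Ikbkg (NEMO), was small at 0.20, and 1 gene in place of 2 rose when replicate 2 or 3 of KO 12 h or replicate 3 of KO 6 h was left out.

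Of 22 Toll-like receptor and adaptor genes, which start the response, 8 rose and 9 fell. Tlr4, the LPS receptor, had 59, 60.7, 67.8 and 58.5 CPM in KO 12 h and 65.3, 60.5, 67.9 and 52.4 CPM in KO 6 h, an overlap with no call (adjusted p = 0.996). Tlr2, the receptor for bacterial lipoproteins, had 56, 54.2, 85.5 and 59 CPM in KO 12 h, against 307, 334, 327 and 304 CPM in KO 6 h (-2.32 ± 0.15, adjusted p = 2.53e-11). The adaptor Myd88 fell by 1.02 ± 0.083, whereas Ticam1, which encodes the adaptor TRIF of the interferon arm, rose by 0.63 ± 0.15 and the kinase Irak4 by 0.63 ± 0.12. The list's median was 0.01 and turned to -0.01 with DESeq2's size factors.

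Early transcription factors were divided likewise, with 4 of 28 higher and 9 lower (median -0.19). Klf10, a TGF-beta-induced repressor, had 37.1, 31.7, 21 and 44 CPM in KO 12 h and 6.51, 7.36, 9.74 and 8.54 CPM in KO 6 h (2.06 ± 0.22). Its mean was 34.7 CPM at 0 h and 33.4 CPM at 12 h. Fos rose by 0.89 ± 0.23, while Egr1 fell by 0.96 ± 0.25 with groups that overlapped. Klf4, which shapes macrophage polarisation, fell by 1.16 ± 0.15, and Mafk, a small Maf partner, by 1.59 ± 0.15.

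Regulators that end cytokine messages or MAP kinase signals fell in 10 of 19 cases and rose in 4 (median -0.36). Zfp36l1, an RNA-binding protein that marks AU-rich messages for decay, had 35.1, 40.2, 23.3 and 33.5 CPM in KO 12 h and 6.73, 5.69, 4.01 and 6.61 CPM in KO 6 h (2.51 ± 0.23, adjusted p = 6.29e-09). Its relative Zfp36l2 rose to 315 to 353 CPM in KO 12 h, against 133 to 174 CPM in KO 6 h (1.11 ± 0.095). The third relative, Zfp36 itself, fell by 0.78. Dusp6, a phosphatase of ERK kinases, rose by 1.67 ± 0.15, and Dusp2 fell by 1.29 ± 0.22 with replicate 4 of KO 12 h the lowest at 64.8 CPM. Of the SOCS proteins and other cytokine-induced inhibitors, 9 of 18 fell and 4 rose (median -0.27). Socs1, which blocks JAK kinases, had 126, 116, 139.6 and 84.1 CPM in KO 12 h and 299, 338, 362 and 335 CPM in KO 6 h (-1.51 ± 0.16). Cish fell by 2.08 ± 0.20 and Socs3 by 1.03 ± 0.11, whereas Socs5 rose by 1.15 ± 0.24 from a low level at which the groups overlapped.

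Interferon-stimulated genes fell more often than they rose. Ifih1, which encodes the viral RNA sensor MDA5, had the largest fall of the type 1 interferon list and is shown for the motif common in that list. The window is RefSeq's for GRCm38.p6, chr2:62646206-62646505, minus strand, printed in the direction of transcription. Capitals mark the only match to the interferon-stimulated response element (GAAA, any 2 bases, GAAA), searched on both strands, beginning 32 bases after the start.
Ifih1: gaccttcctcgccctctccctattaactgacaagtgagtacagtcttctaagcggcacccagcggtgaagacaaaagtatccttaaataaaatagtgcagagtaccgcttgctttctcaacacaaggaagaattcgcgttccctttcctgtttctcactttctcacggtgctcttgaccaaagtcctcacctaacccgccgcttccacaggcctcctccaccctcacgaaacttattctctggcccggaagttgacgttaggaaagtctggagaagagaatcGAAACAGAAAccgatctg
That motif was present in 20 of the 35 type 1 interferon genes that had a promoter in the table (57.1%), against 3.99% of all 27025 genes and 4.21% of the 8785 tested. It was found in 5.92% of the promoters of genes that fell at least 2-fold and in 2.79% of those that rose at least 2-fold.

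Ifih1 had 544, 489, 639 and 358 CPM in KO 12 h and 1427, 1244, 1379 and 1263 CPM in KO 6 h (-1.39 ± 0.12, adjusted p = 2.96e-09). All 4 values at 12 h were under the lowest at 6 h, and replicate 4 was the lowest of them. Of 47 type 1 interferon genes tested, 23 fell and 7 rose, with a median of -0.21. The kinase Eif2ak2 (PKR), which stops translation on viral RNA, fell by 1.02 ± 0.13, Ifi203 by 0.93 ± 0.093 and the nucleotide kinase Cmpk2 by 0.92 ± 0.12. Rsad2, the antiviral enzyme viperin, had 10811, 9911, 13431 and 8611 CPM in KO 12 h and 13986, 17093, 16352 and 16768 CPM in KO 6 h (-0.58 ± 0.14). Isg15, a ubiquitin-like modifier, had 789 to 921 CPM in KO 12 h and 867 to 1077 CPM in KO 6 h, an overlap that did not pass (-0.18 ± 0.11, adjusted p = 0.170; 0.0444 by DESeq2). The risers were small in size and included Oas3 (0.55) and Ifi44 (0.63). With library totals alone the risers numbered 12.

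The interferon-inducible GTPases, which attack vacuoles that hold microbes, fell in 13 of 18 cases and rose in 0 (median -0.54). Ifi47 had 452, 409, 498 and 438 CPM in KO 12 h and 913, 908, 936 and 907 CPM in KO 6 h (-1.03 ± 0.086, adjusted p = 1.22e-09), with the 6 h values close together and well above 12 h. Iigp1 had 1041 to 1623 CPM in KO 12 h and 2589 to 2824 CPM in KO 6 h (-1.01 ± 0.14), Igtp fell by 0.94 ± 0.086 and Irgm2 by 0.92 ± 0.14. Gbp and Tgtp genes have close copies, so their tags may be shared between copies. Upstream, among 25 genes of interferon receptors, JAKs, STATs and IRFs, 11 fell and 5 rose. Irf8, an IRF of the myeloid lineage, had 185 to 222 CPM in KO 12 h and 362 to 443 CPM in KO 6 h (-1.0 ± 0.11). Jak2 fell by 0.97 ± 0.10 and Stat5a by 0.84 ± 0.11. Irf7, the IRF that amplifies interferon production, had 609, 650.2, 754 and 787 CPM in KO 12 h and 398, 455, 409 and 484 CPM in KO 6 h (0.68 ± 0.11, adjusted p = 2.85e-05). Ifngr1, the interferon gamma receptor chain, rose by 0.89 ± 0.087 after a drop at 6 h, with means of 148, 205, 80.4, 149 and 263 CPM at 0, 3, 6, 12 and 24 h. Ifnb1, interferon beta itself, was not called (0.06). The 5 that rose became 3 without replicate 3 of KO 6 h and 10 with library totals alone. The median of this list was -0.05 and turned to 0.07 with library totals alone.

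**Figure D3:**
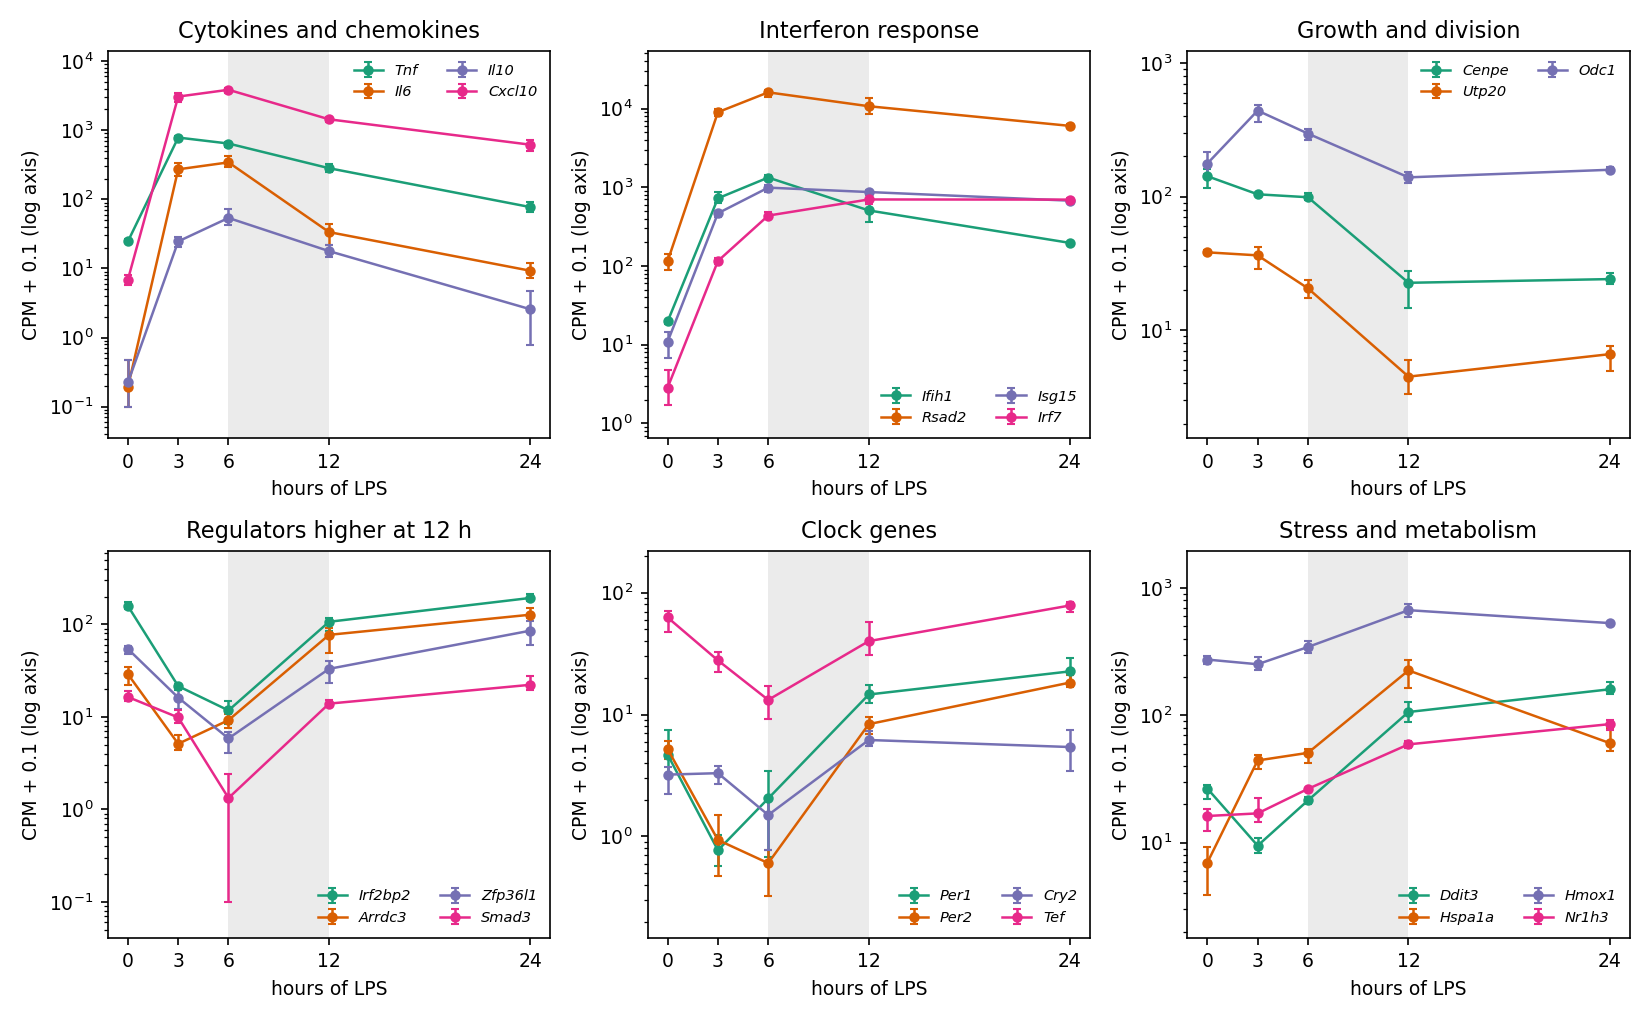
Mean CPM plus 0.1 of the 4 KO libraries at 0, 3, 6, 12 and 24 h of LPS on a log axis, with bars from the lowest to the highest library, for genes in 6 panels; the grey band marks 6 h to 12 h. Tnf, Il6, Cenpe and Utp20 go down inside the band, while Per1, Per2 and Tef go up; the genes of the panels were picked after their values were seen, those of the regulator panel because they are higher at 12 h.

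Genes of mitosis fell. Cenpe, the kinesin that carries chromosomes to the spindle equator, is shown because it fell strongly and its promoter holds the CCAAT box. That motif is common in promoters of mitosis genes. The window is RefSeq's for GRCm38.p6, chr3:135212313-135212612, plus strand, and capitals mark the only CCAAT on either strand, beginning 12 bases before the start.
Cenpe: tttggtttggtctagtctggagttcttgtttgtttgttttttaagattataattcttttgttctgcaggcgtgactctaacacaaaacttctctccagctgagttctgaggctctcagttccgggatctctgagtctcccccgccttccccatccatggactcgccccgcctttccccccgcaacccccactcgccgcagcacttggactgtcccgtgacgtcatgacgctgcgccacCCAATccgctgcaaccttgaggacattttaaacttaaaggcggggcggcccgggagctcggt
CCAAT was found in 22 of 26 mitosis promoters in the table (84.6%), against 41.1% of the 27025 genes and 43.2% of the 8785 tested. It was also in all 12 promoters of circadian clock genes, a list that went the other way.

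Cenpe had 24.1, 27.5, 24 and 14.5 CPM in KO 12 h and 94.9, 98.7, 94.6 and 107 CPM in KO 6 h (-2.12 ± 0.13, adjusted p = 1.27e-11). The 6 h values were tight, and each of the 12 h values was far beneath them. Of 30 mitosis genes 25 fell and 0 rose, with a median of -1.48. Ccna2, cyclin A2, had 1.75 to 4.45 CPM in KO 12 h and 13.5 to 19.3 CPM in KO 6 h (-2.23 ± 0.28), after 75.7 CPM at 0 h. Hmmr (-2.08 ± 0.26) and Ube2c (-1.95 ± 0.16), which help to assemble the spindle and to degrade cyclins, fell with it. Mki67, the proliferation marker Ki-67, had 34.6 to 48.5 CPM in KO 12 h and 62.8 to 76.3 CPM in KO 6 h (-0.73 ± 0.13), and its mean of 206 CPM at 0 h was still 212 CPM at 3 h. Cdc20, the activator of the anaphase-promoting complex, had no more than 0.508 CPM in any KO 12 h library and 1.57 to 3.73 CPM in KO 6 h.

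Of DNA replication and nucleotide genes, 9 of 34 rose and 11 fell. Those that fell included the thymidine kinase Tk1 (-1.40 ± 0.26), the polymerase subunit Pola1 (-1.39 ± 0.21) and the origin factor Mcm10 (-1.26 ± 0.17). Those that rose included E2f2, an E2F factor of the G1 to S transition, with 6.47 to 10.9 CPM in KO 12 h and 2.02 to 3.31 CPM in KO 6 h (1.68 ± 0.24). The origin-licensing Cdc6 (1.63 ± 0.46) and Mcm2 (0.97 ± 0.30) were low, and the call of Mcm2 ended without replicate 4 of KO 12 h (adjusted p = 0.0659). The list's median of -0.09 turned to 0.04 with library totals alone. Among cyclin D genes, CDK inhibitors and p53 targets, 8 of 18 rose and 6 fell (median 0.32). Ccnd3, cyclin D3, had 120.4, 147, 144 and 135 CPM in KO 12 h and 50.7, 53.2, 45.3 and 39.4 CPM in KO 6 h (1.54 ± 0.12), and the stress regulators Sesn1 (1.82 ± 0.29) and Trp53inp1 (1.15 ± 0.21) rose as well. The CDK inhibitor gene Cdkn1a (p21) fell, with 490.0, 494, 617 and 399 CPM in KO 12 h and 1002, 1132, 1107 and 1154 CPM in KO 6 h (-1.13 ± 0.12).

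Of 30 ribosome biogenesis genes 23 fell and 0 rose, with a median of -0.97; 1 rose without replicate 1 of KO 12 h or replicate 3 of KO 6 h. Utp20, a factor of the small-subunit processome, had 4.73, 3.23, 3.75 and 5.85 CPM in KO 12 h and 23.6, 19.4, 17.2 and 21.8 CPM in KO 6 h (-2.24 ± 0.18, adjusted p = 8.10e-10). The helicase Ddx21 fell by 1.39 ± 0.12, and the RNA methylase gene Fbl had 36 to 39 CPM in KO 12 h and 79.1 to 85.7 CPM in KO 6 h (-1.17 ± 0.12). Npm1, nucleophosmin, had 306 to 452 CPM in KO 12 h and 697 to 817 CPM in KO 6 h (-1.01 ± 0.14). Ribosomal protein genes, measured from 3′ tags that processed pseudogenes can share, fell in 43 of 53 cases and rose in 0, by less (median -0.50). Rpl6 fell by 0.77 ± 0.14.

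**Figure D4:**
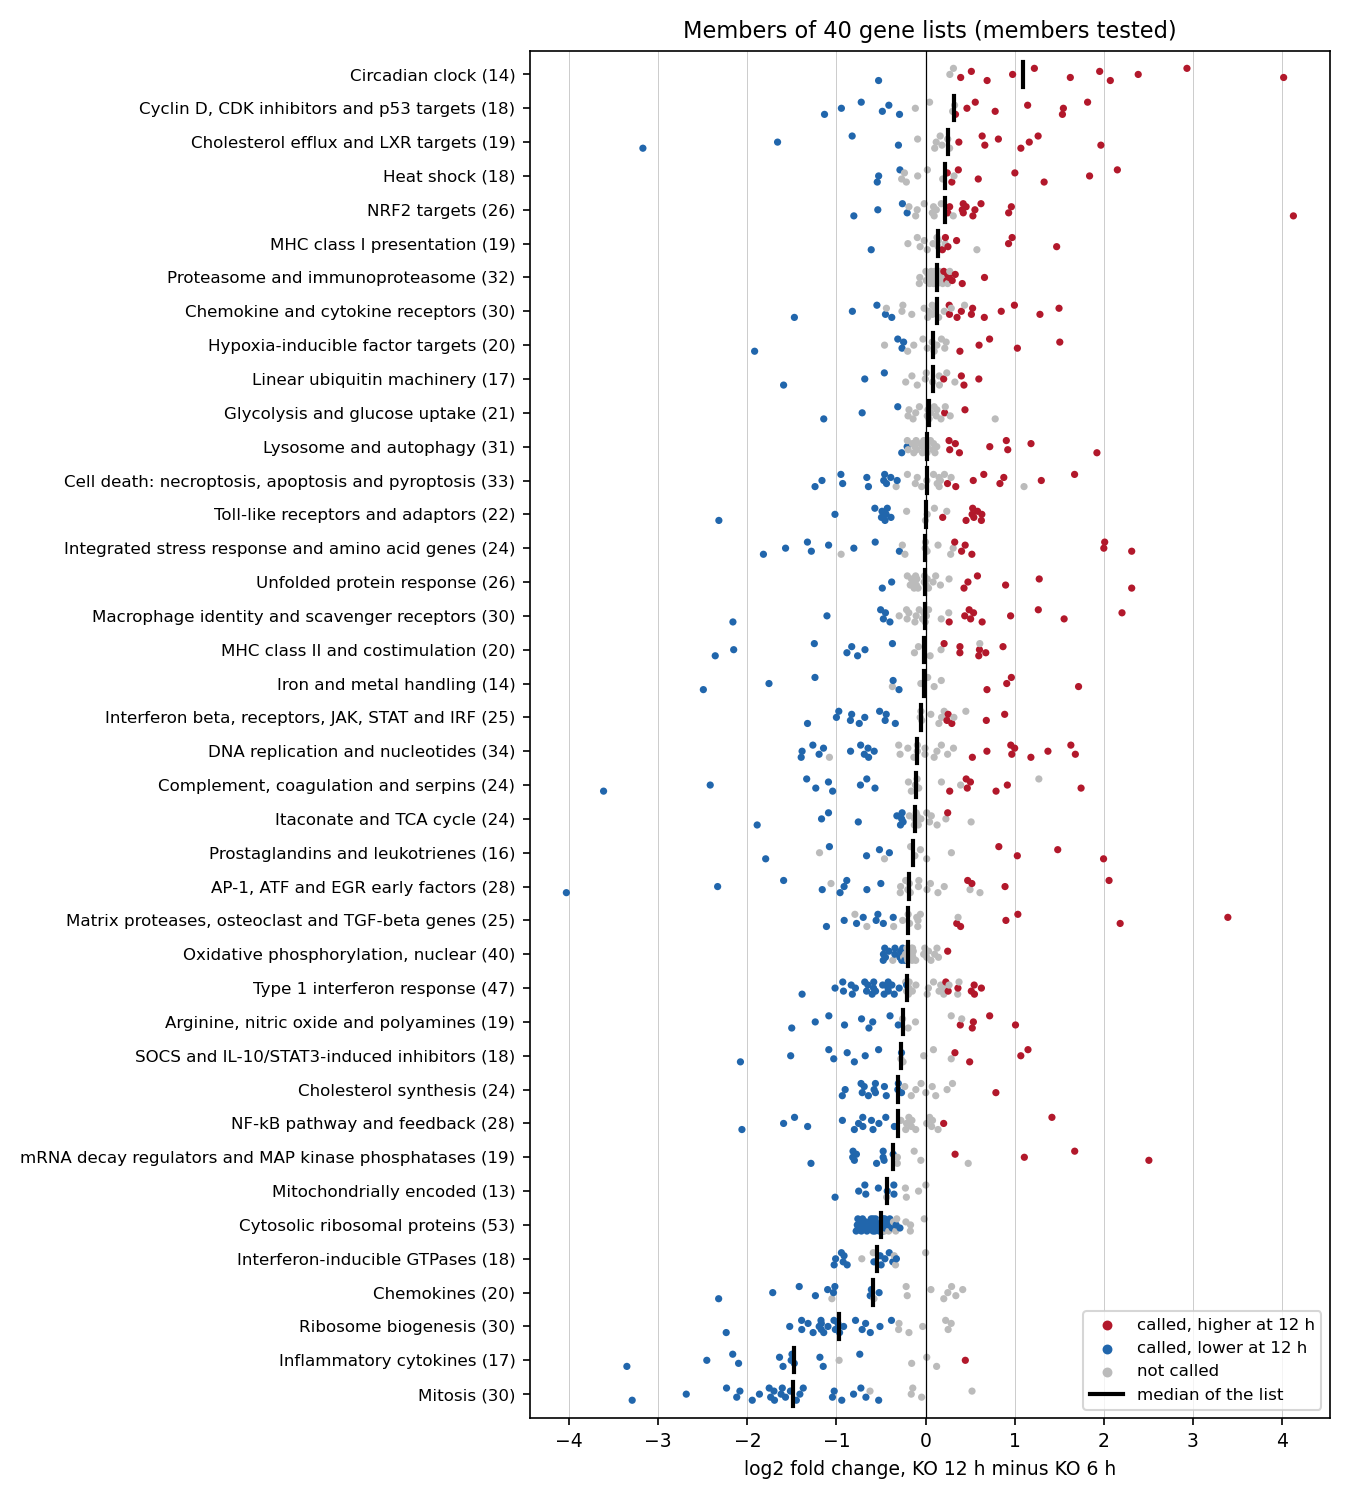
Log2 difference between KO 12 h and KO 6 h of each tested member (points) and the median (bar) of the 40 gene lists. Mitosis (median -1.48), inflammatory cytokine (-1.47) and ribosome biogenesis (-0.97) genes lie at the low end, and circadian clock genes (1.1) at the high end.

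The 10 genes that rose most by the naming rule were Smad3, Antxr1, Irf2bp2, Arrdc3, Eepd1, Snx29, Per1, Vav2, Aatk and Rab3a, with differences from 3.39 to 2.87. Irf2bp2, a corepressor of the IRF2 factor, had 107, 118, 84.5 and 118 CPM in KO 12 h and 12.8, 8.36, 10.9 and 14.6 CPM in KO 6 h (3.18 ± 0.14, adjusted p = 3.08e-14). Each 12 h library was well above the highest 6 h library, and the KO means of 158, 21.5, 11.7, 107 and 193 CPM at 0, 3, 6, 12 and 24 h trace a trough at 6 h. Arrdc3, an arrestin-like adaptor for membrane proteins, had 91.5, 85.9, 81.8 and 49.3 CPM in KO 12 h and 10.8, 10.0, 7.45 and 8.27 CPM in KO 6 h (3.07 ± 0.19). Smad3, the effector of TGF-beta receptors, had 12.7, 15.2, 13 and 14.5 CPM in KO 12 h and 1.79, 0.0, 2.29 and 0.827 CPM in KO 6 h (3.39 ± 0.30). Its trough at 6 h came after 16.3 CPM at 0 h. Eepd1 (3.05 ± 0.24), Aatk (2.87 ± 0.23) and Vav2 (2.90 ± 0.32), an exchange factor for small GTP-binding proteins, were likewise lower at 6 h than at 0 h, whereas Antxr1, an anthrax toxin receptor, was near 0 before, with means of 0.0872, 0.246, 1.02, 9.34 and 11.4 CPM.

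Circadian clock genes had the highest median of the 40 lists, 1.1, with 11 of 14 up and 1 down. The clock is a loop in which CLOCK and BMAL1 (Arntl) bind E-boxes and drive Per and Cry, whose products then block them. Per1 is shown because its window holds the E-box CACGTG, a palindrome that reads the same on both strands, beginning 166 bases before the start and marked by capitals. It is 1 of the 2 windows that RefSeq gives for the gene in GRCm38.p6, chr11:69098699-69098998, plus strand.
Per1: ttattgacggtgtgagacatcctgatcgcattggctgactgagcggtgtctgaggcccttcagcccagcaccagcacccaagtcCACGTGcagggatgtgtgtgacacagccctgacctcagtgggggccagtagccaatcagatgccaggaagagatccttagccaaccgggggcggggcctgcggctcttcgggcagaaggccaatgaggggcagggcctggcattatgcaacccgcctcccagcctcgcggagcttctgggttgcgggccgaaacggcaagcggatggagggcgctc
CACGTG was found in 4 of the 12 clock genes with a promoter in the table (33.3%), against 8.09% of all 27025 and 12.1% of the 8785 tested.

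Per1 had 15.7, 12.3, 12.5 and 17.5 CPM in KO 12 h and 1.12, 3.35, 0.573 and 2.76 CPM in KO 6 h (2.93 ± 0.34, adjusted p = 1.69e-07). The lowest 12 h value was several times the highest 6 h value. Per2 had 6.87 to 9.40 CPM in KO 12 h and 0.224 to 0.669 CPM in KO 6 h, so few counts that the size of its rise is uncertain. Tef, an output factor of the clock, rose to 30.6 to 57.5 CPM in KO 12 h, against 9.10 to 16.9 CPM in KO 6 h (1.63 ± 0.21), Rora by 1.22 ± 0.15 and Arntl by 0.98 ± 0.24. Activators and repressors of the loop were both among the risers, while the repressor gene Cry1 was not called (0.27 ± 0.18, adjusted p = 0.218). Nfil3, which opposes Tef at its target genes, was the member that fell (-0.53). The labels give hours after LPS and no clock time or change of medium, whose part in this was not tested.

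Stress pathways were mixed. Of 26 NRF2 targets, the antioxidant genes, 12 rose and 4 fell (median 0.21). Hmox1, haem oxygenase 1, had 633, 597, 757 and 697 CPM in KO 12 h and 309, 385, 311 and 372 CPM in KO 6 h (0.96 ± 0.091, adjusted p = 8.18e-09). Gclc, the limiting enzyme of glutathione synthesis, rose by 0.93 ± 0.13, and Osgin1 lay at 5.05 to 13.5 CPM in KO 12 h and 0.0 to 0.860 CPM in KO 6 h. The cystine importer Slc7a11 fell instead, by 0.80 ± 0.16. The 4 that fell became 2 without replicate 4 of KO 6 h. In the integrated stress response list 7 of 24 rose and 8 fell. Ddit3, the stress factor CHOP, had 94.3, 88.2, 127 and 116 CPM in KO 12 h and 20.2, 22.1, 20.6 and 22.6 CPM in KO 6 h (2.31 ± 0.13, adjusted p = 9.14e-13), and Atf4 (0.52 ± 0.11), Trib3 (2.01 ± 0.30) and Sesn2 (2.00 ± 0.29) rose with it. The serine and one-carbon enzyme Shmt2 (-1.82 ± 0.21), the amino acid importer Slc7a5 (-1.57 ± 0.25) and the asparagine synthetase Asns (-1.33 ± 0.19) fell, whereas the one-carbon enzyme Mthfd2 (0.33 ± 0.099) and the alanyl-tRNA synthetase Aars (0.40 ± 0.10) rose.

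Of 26 genes of the unfolded protein response 6 rose, a share near the 22.7% over all genes, and 2 fell. Herpud1, which helps to degrade proteins of the endoplasmic reticulum, had 44.8 to 60.5 CPM in KO 12 h and 18.3 to 24.4 CPM in KO 6 h (1.28 ± 0.12), but the chaperone gene Hspa5 was not called (-0.17). Of 18 heat shock genes 8 rose and 3 fell (median 0.22). Hspa1a, the inducible HSP70, had 221, 271, 163 and 247 CPM in KO 12 h and 54.7, 52.2, 42.4 and 53.5 CPM in KO 6 h (2.15 ± 0.17, adjusted p = 1.01e-09). Its near-identical copy Hspa1b rose too (1.84 ± 0.19), and tags of the pair cannot be told apart with certainty. Hspa8, the constitutive form, rose by 0.59 ± 0.073 at a high level of 1359 to 1631 CPM in KO 12 h and 931 to 1036 CPM in KO 6 h. At 0 h the mean of Hspa1a had been 6.88 CPM, and at 24 h it was 60.6 CPM, and the 12 h mean was the highest of the 5 times.

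Of 24 genes of cholesterol synthesis 14 fell and 1 rose (median -0.31). Hmgcs1, an early enzyme of the pathway, had 498, 549.5, 496 and 349 CPM in KO 12 h and 729, 814, 799.6 and 717 CPM in KO 6 h (-0.69 ± 0.13), and Cyp51 fell by 0.72 ± 0.11. Idi1 (-0.90 ± 0.35) passed narrowly (adjusted p = 0.0485) with overlapping groups, 25.5 CPM in replicate 3 of KO 12 h being far below its peers. Without that library it gave -0.59 (adjusted p = 0.0730), and its call also ended without replicate 1 or 2 of KO 12 h or replicate 1, 3 or 4 of KO 6 h (adjusted p of up to 0.135). Of 19 genes of cholesterol efflux and LXR, the sterol-sensing receptor, 8 rose and 4 fell (median 0.25). Nr1h3, which encodes LXR alpha, had 55.2, 55.8, 62.8 and 62.8 CPM in KO 12 h and 26.5, 26.8, 26.9 and 25.4 CPM in KO 6 h (1.16 ± 0.13, adjusted p = 9.45e-08). Its partner Rxra rose by 1.97 ± 0.23 and Scd2, a fatty acid desaturase, by 1.26 ± 0.14. The efflux pump Abca1 overlapped between groups and did not pass (0.25 ± 0.15, adjusted p = 0.180; 0.0345 with library totals alone).

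Of 21 glycolysis genes 2 rose and 3 fell (median 0.04). Hk2, the inducible hexokinase, had 101, 111, 128 and 89 CPM in KO 12 h and 247, 233, 251 and 219 CPM in KO 6 h (-1.14 ± 0.10), and Pfkp fell by 0.71 ± 0.11. The lactate exporter Slc16a3 rose by 0.44 ± 0.11, and 8 in place of 2 rose with library totals alone. In the tricarboxylic acid cycle and itaconate list 9 of 24 fell and 1 rose, with a median of -0.11 that turned to 0.02 with library totals alone. The 9 became 4 with library totals alone and 5 with no filter on low counts, and the 1 became 0 without replicate 4 of KO 12 h or replicate 1, 3 or 4 of KO 6 h, 2 without replicate 3 of KO 12 h and 3 with library totals alone. Fumarase, encoded by Fh1, had 19.7, 23.7, 21.8 and 26.4 CPM in KO 12 h and 47.8, 47.2, 50.7 and 49.3 CPM in KO 6 h (-1.09 ± 0.10, adjusted p = 5.22e-09), Idh3a fell by 1.17 ± 0.22 and Idh2 by 0.75 ± 0.098. Acod1, which makes the macrophage metabolite itaconate, had 3135 to 3780 CPM in KO 12 h and 3644 to 4485 CPM in KO 6 h. Its call (-0.25 ± 0.099, adjusted p = 0.0414) ended without replicate 1, 2 or 3 of KO 12 h or replicate 2, 3 or 4 of KO 6 h, at an adjusted p of up to 0.151.

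The mitochondrial genome's own 13 genes fell in 8 cases and rose in 0 (median -0.43). A subunit gene of complex I, mt-Nd3, had 309, 225, 171 and 361 CPM in KO 12 h and 553, 535, 494 and 570.2 CPM in KO 6 h (-1.02 ± 0.20), and mt-Nd2 fell by 0.75 ± 0.12. Replicate 3 of KO 12 h was the lowest in both, and without it 5 of the 13 fell. The mitochondrial share of all counts was 1.95, 1.86, 1.32 and 1.90% in KO 12 h and 1.94, 2.12, 1.87 and 2.13% in KO 6 h, so the ranges overlapped. That share includes these 13 genes and is no separate measure of them. The cause of these falls was not tested. Among 40 nuclear genes of oxidative phosphorylation 14 fell and 1 rose (median -0.20), a count that ran down to 3 with library totals alone, 8 without replicate 3 of KO 12 h or replicate 1 of KO 6 h, and 9 without replicate 1 of KO 12 h or replicate 2 of KO 6 h. The falls included Ndufb8 at -0.45 ± 0.088. In arginine, nitric oxide and polyamine metabolism 5 of 19 rose and 9 fell (median -0.26). Nos2, the inducible nitric oxide synthase, had 435 to 673 CPM in KO 12 h and 863 to 1121 CPM in KO 6 h (-0.91 ± 0.16), while Ass1, which recycles citrulline to feed it, rose by 0.72 ± 0.14. The polyamine enzymes Odc1 (-1.09 ± 0.11) and Srm (-1.50 ± 0.25) and the arginine importer Slc7a1 (-1.24 ± 0.14) fell, and Smox, which oxidises spermine, rose (1.01 ± 0.13).

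Of 20 hypoxia-inducible factor targets 5 rose and 4 fell (median 0.09), shares near those over all genes. These counts are fragile: they became 3 up without replicate 2 of KO 12 h or replicate 1 of KO 6 h, and 1 down without replicate 4 of KO 12 h or replicate 3 of KO 6 h. Ndrg1 lay at 31.8 to 47 CPM in KO 12 h and 129 to 153 CPM in KO 6 h (-1.92 ± 0.13), and Bnip3, a mitophagy receptor, rose by 0.72 ± 0.12. Of 31 lysosome and autophagy genes 9 rose and 2 fell. Tfeb, the regulator of lysosome genes, lay at 7.48 to 20.8 CPM in KO 12 h and 2.29 to 4.26 CPM in KO 6 h (1.92 ± 0.40), Ulk1, the kinase that starts autophagy, rose by 1.18 ± 0.16 and the sialidase Neu1 by 0.92 ± 0.085. The 2 that fell became 1 or 0 under most of the left-out libraries, among them 0 without replicate 2 or 3 of KO 6 h. The list's median of 0.02 went to -0.01 with DESeq2's size factors. Of 32 proteasome genes 8 were called higher, a share near the 22.7% over all genes, and 0 lower (median 0.13). The highest was Psmc1 (0.66 ± 0.13), a base ATPase. The 8 became 4 without replicate 2 of KO 12 h, 5 without replicate 3 of KO 6 h and 20 with library totals alone.

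Among class I genes 7 of 19 rose and 1 fell (median 0.14). H2-Q7, a non-classical class I gene with close copies, had 89.1, 92.6, 94.8 and 74.2 CPM in KO 12 h and 45.3, 41.8, 39.3 and 52.4 CPM in KO 6 h (0.97 ± 0.12), while Nlrc5, the transactivator of class I genes, fell by 0.61 ± 0.096. The 7 became 4 in a fit of the 8 libraries alone. In the class II and costimulation list 7 of 20 rose, among them H2-Ab1 (0.61 ± 0.21), and 8 fell. The 7 became 2 without replicate 4 of KO 12 h, 3 without replicate 2 of KO 6 h and 4 without replicate 1 or 3 of KO 6 h, and the call of H2-Ab1 was among those lost (adjusted p of up to 0.0762). Costimulatory genes were among the falls. Cd83 had 33.3, 32.6, 32 and 20.3 CPM in KO 12 h and 149, 116, 144 and 119 CPM in KO 6 h (-2.15 ± 0.14, adjusted p = 2.00e-11), the OX40 ligand Tnfsf4 fell by 2.36 ± 0.29 and Cd40 by 0.88 ± 0.091.

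Of 30 macrophage identity and scavenger receptor genes 10 rose and 6 fell. Cebpa, a factor of myeloid differentiation, rose by 1.56 ± 0.26. Cebpd, an LPS-induced relative, fell to 24.3 to 45.2 CPM in KO 12 h, against 155 to 164 CPM in KO 6 h (-2.16 ± 0.13), and the mannose receptor Mrc1 fell by 1.11 ± 0.13. The scavenger receptor Marco varied widely within each group, with 150.2, 151, 214 and 50.8 CPM in KO 12 h and 30.7, 33.8, 52.2 and 6.89 CPM in KO 6 h (2.21 ± 0.64, adjusted p = 0.0110). Replicate 4 was the lowest and replicate 3 the highest at both times, and the groups overlapped between them. Spi1 (PU.1) and Lyz2, whose locus carries LysM-Cre, were not called (adjusted p = 0.384 and 0.161).

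Coagulation, complement and serpin genes moved in both directions. The urokinase receptor gene Plaur fell by 1.33 ± 0.16. The complement genes C3 (0.79 ± 0.11) and Cfb (0.92 ± 0.11) rose, Cfb having 785 to 873 CPM in KO 12 h and 369 to 504 CPM in KO 6 h. In all, 7 of 24 genes of this list rose and 9 fell, with a median of -0.10 that turned to 0.02 with library totals alone. Of 25 matrix, osteoclast and TGF-beta genes 6 rose and 8 fell (median -0.19). Thbs1, thrombospondin 1, an activator of TGF-beta, had 201, 218, 157 and 232 CPM in KO 12 h and 41.5, 52.2, 32.7 and 52.1 CPM in KO 6 h (2.18 ± 0.24, adjusted p = 7.92e-07). It rose with Smad3 and Mmp19 (1.04 ± 0.15), whereas the osteoclast proton pump gene Atp6v0d2 fell by 1.11 ± 0.17.

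In prostaglandin synthesis the inducible enzymes went opposite ways. Ptgs2, cyclooxygenase 2, had 249, 192, 135 and 241 CPM in KO 12 h and 664, 644, 776 and 750.2 CPM in KO 6 h (-1.79 ± 0.20, adjusted p = 4.53e-07). Ptges, the synthase that acts next, had 262, 303, 199 and 308 CPM in KO 12 h and 106, 124, 58.5 and 95.1 CPM in KO 6 h (1.48 ± 0.22), and Ptger2, a receptor for the product, rose by 2.00 ± 0.27. Of the 16 genes of that list 4 rose and 5 fell (median -0.14). In iron and metal handling 4 of 14 rose and 5 fell. The metallothionein Mt2 fell to 123, 130.4, 145 and 139 CPM in KO 12 h, against 766, 792, 663 and 813 CPM in KO 6 h (-2.49 ± 0.12, adjusted p = 1.13e-13). Slc40a1, ferroportin, the iron exporter, rose by 1.72 ± 0.15 and Tfrc, the receptor for iron uptake, fell by 1.24 ± 0.16.

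Cell death genes were followed because linear ubiquitin holds back death signalling. Of 33 tested 8 rose and 11 fell, with a median of 0.01 (-0.01 with DESeq2's size factors). Nlrp3, the inflammasome sensor, had 62.7, 53.6, 44.5 and 50.3 CPM in KO 12 h and 124, 106, 145 and 123 CPM in KO 6 h (-1.24 ± 0.12, adjusted p = 1.04e-08), and the DNA sensor Aim2 fell by 1.16 ± 0.20. Pro-apoptotic BH3-only genes were divided. Pmaip1 (NOXA) and Bcl2l11 (BIM) rose, Bid fell (-0.32) and Bbc3 (PUMA) was not called (-0.04). Pmaip1 had 40, 43.5, 28.3 and 39.6 CPM in KO 12 h and 11.7, 12, 12 and 11.9 CPM in KO 6 h (1.67 ± 0.13), and Bcl2l11 rose by 0.88 ± 0.13. The survival gene Bcl2 rose with them, by 1.3 ± 0.18. Other survival genes fell, among them Bcl2a1b (-0.93), Bcl2a1d (-0.95), Bcl2a1a (-0.64) and Cflar (-0.47), while Bcl2l1 was not called (0.17). Among death receptor genes Fas (-0.66) and Casp8 (-0.44) fell and Fadd rose (0.65). Casp8 lost its call without replicate 4 of KO 12 h or replicate 3 of KO 6 h (adjusted p = 0.0593 and 0.0535), and with library totals alone (0.0864). Mlkl, the executor of necroptosis, had 100.5, 105, 96.5 and 94.5 CPM in KO 12 h and 84.1, 85, 84 and 81.9 CPM in KO 6 h. The groups were apart by a small margin (0.25 ± 0.091, adjusted p = 0.0303), and the call ended without replicate 1 or 2 of KO 12 h or replicate 1, 3 or 4 of KO 6 h, at an adjusted p of up to 0.162. Its kinase Ripk3 stayed at 7.46 to 8.69 CPM in KO 12 h and 4.01 to 9.92 CPM in KO 6 h (adjusted p = 0.504). The count of 8 rising death genes became 5 without replicate 1 or 3 of KO 6 h.

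In the linear ubiquitin machinery 4 of 17 genes rose and 3 fell (median 0.08), shares near those over all genes, and 7 rose with library totals alone. Of the 3 LUBAC subunits, the catalytic Rnf31 (HOIP) fell by 0.46 ± 0.15 (adjusted p = 0.0170), Sharpin rose by 0.40 ± 0.11 and Rbck1 (HOIL-1) was not called (adjusted p = 0.988). Rnf31 lost its call without replicate 4 of KO 12 h or of KO 6 h (adjusted p = 0.0589 and 0.0669), and with library totals alone (0.0741). Sharpin had 32.1, 29.1, 32.3 and 33.8 CPM in KO 12 h and 23.1, 23.1, 26.7 and 23.4 CPM in KO 6 h, with no overlap. Otulinl, an Otulin relative without its peptidase activity, rose by 0.60 ± 0.14.

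Of the markers listed for cells other than macrophages, those of lymphoid, mast and stromal cells were low or at 0, while Itgam, S100a4 and Vcan of the monocyte list, Mmp8 of the neutrophil, Bst2 of the dendritic and Pf4 of the platelet list were abundant. In bulk RNA, fewer cells of a type and less RNA per cell cannot be told apart. Of 15 neutrophil markers 5 could be tested, of which Csf3r rose and Mmp8 fell (not without replicate 2 of KO 6 h, adjusted p = 0.0798), and Ly6g and Retnlg were at 0 in all 8 libraries. The summed level of that list was 214 to 248 CPM in KO 12 h and 240.5 to 289 CPM in KO 6 h, most of it Mmp8. Of 11 monocyte markers 10 were tested, of which 1 rose and 2, F13a1 and S100a4, fell. F13a1 lost its call without replicate 1, 3 or 4 of KO 12 h or replicate 1 or 2 of KO 6 h (adjusted p of up to 0.116). The 2 became 1 without replicate 4 of KO 12 h or replicate 1 or 2 of KO 6 h, and library totals alone gave 3 higher and 1 lower. The macrophage identity and scavenger receptor list summed to 17513 to 19541 CPM in KO 12 h and 18316 to 19706 CPM in KO 6 h. The monocyte sum was lower, at 1588 to 1721 CPM in KO 12 h and 1846 to 1972 CPM in KO 6 h. Most of it was Itgam, which macrophages express as well, at 665.5 to 743 CPM in KO 12 h and 575 to 635 CPM in KO 6 h, S100a4 at 511 to 668 CPM in KO 12 h and 677 to 840.3 CPM in KO 6 h, and Vcan. None of 14 lymphoid or 10 mast cell and basophil markers had enough counts to test, with lymphoid sums of 2.54 to 4.25 CPM in KO 12 h and 1.43 to 3.01 CPM in KO 6 h, and 9 of the 10 mast cell and basophil markers at 0. Of 12 stromal markers Dcn alone was tested and rose, with 54 counts over the 4 KO 12 h libraries and 8 over the 4 KO 6 h libraries, while Col1a1 and Col3a1 were at 0. The stromal sum was 7.89 to 10.0 CPM in KO 12 h and 3.73 to 7.03 CPM in KO 6 h. Of 12 dendritic cell markers 7 were tested, with Clec9a called at 2.54 to 4.73 CPM in KO 12 h and 1.00 to 2.48 CPM in KO 6 h. That call ended without replicate 1, 2 or 3 of either group (adjusted p of up to 0.119). The dendritic sum was 242 to 349 CPM in KO 12 h and 208 to 267 CPM in KO 6 h, most of it Bst2, an interferon-induced gene. Bst2 was not called (0.26 ± 0.12, adjusted p = 0.0836) but passed with library totals alone (0.0105), with no filter on low counts (0.0445) and without replicate 2 of KO 6 h (0.0405). Of 12 red cell and platelet markers Pf4 fell, by 0.30 ± 0.10 (not without replicate 2 of KO 6 h, adjusted p = 0.0717), and the sum was 737 to 881 CPM in KO 12 h and 939 to 1073 CPM in KO 6 h, nearly all of it Pf4. The part of other cell types in the changes above was not tested.

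In WT cells over the same interval, 5546 of 12151 genes changed (45.6%), 2706 upwards (22.3%) and 2840 downwards (23.4%), and 750 (6.17%) and 589 (4.85%) of these by at least 2-fold. Of 11875 genes tested in both genotypes, 5359 were called in KO and 5491 in WT, and 4349 in both, which is 81.2% of the KO calls and 79.2% of the WT calls. All but 1 of the 4349 moved the same way. A test of the difference between the steps over the 16 libraries called 0 of 11264 genes (0.0%) with edgeR. DESeq2 called 0 as well. With edgeR 331 genes had an unadjusted p under 0.05, a share of the 11264 below the 0.05 that equal steps would give by chance. The sex of the WT libraries is not given here, so the genotypes may not be matched for sex. The typical absolute difference between the KO and the WT step was 0.13 in log2 with a median SE of 0.22, so that modest differences between genotypes were not detectable with 4 libraries per group. The gene with opposite calls was Hagh, a glyoxalase that clears methylglyoxal. It had 4.48, 4.45, 6.5 and 7.12 CPM in KO 12 h and 8.75, 8.70, 10.3 and 7.44 CPM in KO 6 h (-0.65 ± 0.20), against a rise of 0.75 in WT, and the difference did not pass (unadjusted p = 0.000106, adjusted p = 1.00). Vgll4, a cofactor of TEAD factors, rose by 1.78 ± 0.26 in KO and was not called in WT, at 0.31 (unadjusted p = 0.00048). Nuf2, a kinetochore gene, fell by 2.34 ± 0.28 in KO and 0.92 in WT, and D1Ertd622e by 1.27 ± 0.096 in KO and 0.81 in WT, with unadjusted p of 0.00081 and 0.00073.

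**Figure D5:**
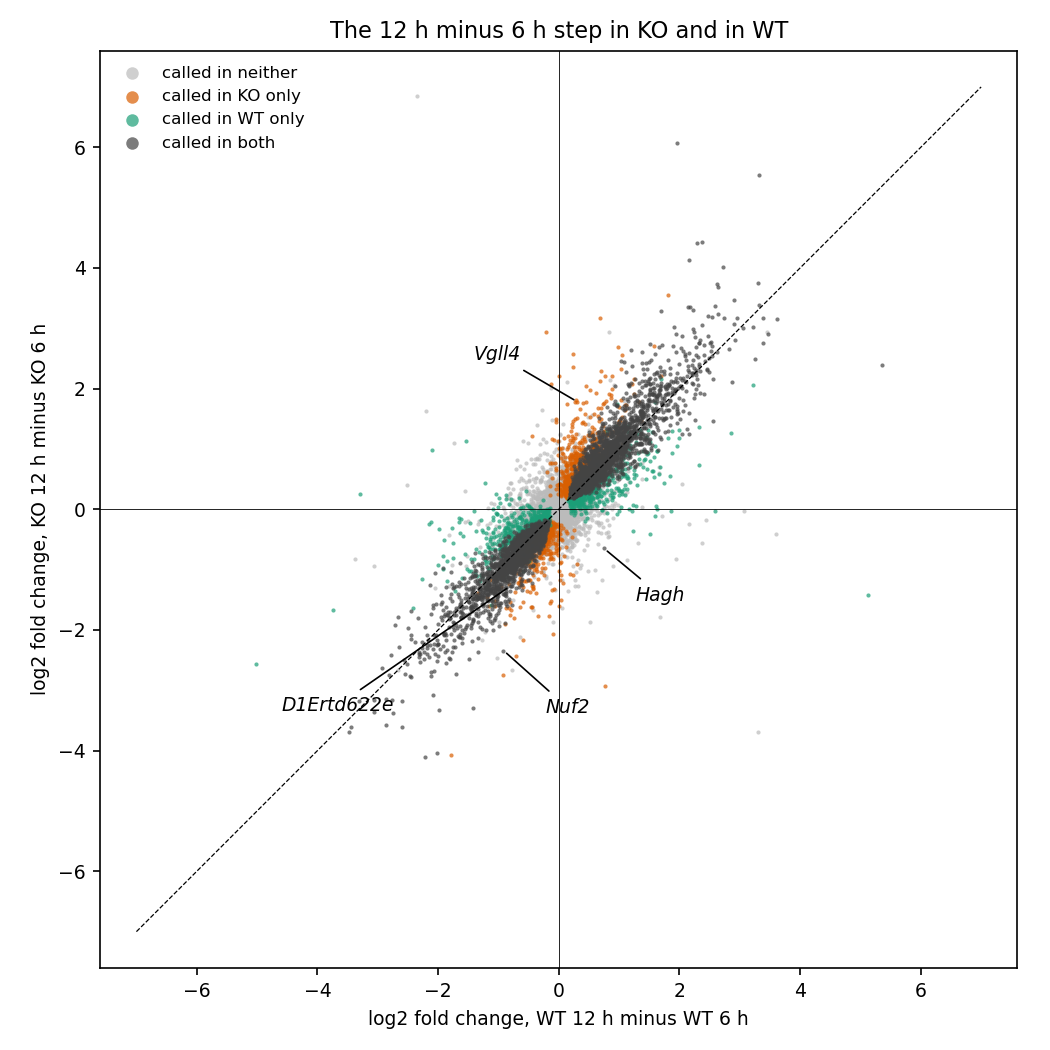
Log2 difference between 12 h and 6 h in KO cells (vertical axis) against the same difference in WT cells (horizontal axis) for the 11875 genes tested in both, coloured by the genotype in which a gene was called. Points lie along the diagonal, and the 4 labelled genes, Hagh, Vgll4, D1Ertd622e and Nuf2, have the smallest p for a difference, none of which passed adjustment.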

How the data were processed

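RNA of the 40 libraries was made into QuantSeq 3′ FWD libraries, which tag the 3′ end of transcripts. The submitters' processing notes list the GRCm39 build, RSEM 1.3.3 and STAR 2.7.10a, and for read handling UMI-tools 1.1.2, cutadapt 3.7 and FastQC 0.11.9, with no order or settings. No source used here gives the annotation release or the strand setting. The authors deposited expected counts per gene as RSEM writes them, all whole numbers here, for 57010 gene IDs, 52029 of which carry a symbol in the tables used. How tags that close copies of a gene share were assigned is not given in the sources used here.

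The 4 KO 12 h and 4 KO 6 h libraries were compared in a fit of the 20 KO libraries (edgeR 4.0.16 quasi-likelihood test in R 4.3.3, robust, TMM factors, filterByExpr with a minimum count of 10, Benjamini-Hochberg adjusted p of 0.05, two-sided). The WT step used the 20 WT libraries, and the difference between steps the 16 libraries of both genotypes at 12 h and 6 h. The SE is the log2 difference over the square root of F. CPM used TMM factors over all 40 libraries, whose totals ran from 3615155 to 6829303 counts. Per-library precision is limited by counting error for genes of a few CPM. Libraries of a group are labelled as biological replicates.

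The comparison and the 47 lists (40 of pathways and 7 of cell markers, 1069 of 1074 entries matched) were chosen with earlier results of these data known. By rule the text names from 192 genes: the 10 highest and 10 lowest, up to 4 per list (2 where none was called) and the 4 with the smallest p for a genotype difference. Other genes were chosen after their values were seen, and a few are not reported here. Alternatives were DESeq2 1.42.0 and its size factors, library totals, other filters, a replicate block, glmTreat, other sets of libraries and each library left out. Promoters and motifs are RefSeq's for GRCm38.p6, used for sequence only. The pipeline was tested on simulated data.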

Additional observations from a re-analysis of the deposited data

Results flagged for a closer look

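In 31 of 470 groups of 4 libraries, the highest or lowest value stood apart from the other 3 by a gap above Dixon's 95% critical value for 4 samples. Chance flags about 1 group in 20. Causes were not tested.

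In replicate 4 of KO 12 h the lowest values of their groups were Il27 (32.28 CPM, others 59.53 to 59.85), Dusp2 (64.81 CPM, others 136.6 to 146.3), Ifi203 (1371 CPM, others 1562 to 1597) and Cd83 (20.33 CPM, others 32.01 to 33.33). The highest there were Il1b (714.7 CPM, others 451.7 to 484) and Mcm2 (9.912 CPM, others 4.726 to 5.502). In replicate 3 of KO 12 h the highest were Tlr2 (85.54 CPM, others 54.18 to 58.96), Trib3 (14.51 CPM, others 7.683 to 8.706) and C3 (601.3 CPM, others 440.1 to 466.7). Its lowest was the mitochondrial share of counts (1.325%, others 1.856 to 1.952%). In replicate 2 of KO 12 h the highest were Cyp51 (211.3 CPM), Slc40a1 (116.7 CPM), Il1r1 (6.874 CPM) and the total count (5264452, others 4290997 to 4455350). In replicate 1 of KO 12 h the highest were Ifngr1 (161.4 CPM, others 143.8 to 145.6) and Itgam (743 CPM, others 665.5 to 671.7).

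In replicate 1 of KO 6 h the lowest were Tnf (577.6 CPM, others 659.8 to 668.1), Ccl4 (1108 CPM, others 1231 to 1248), Klf4 (64.38 CPM, others 83.97 to 85.3) and Aspm (2.692 CPM, others 5.445 to 5.687), and the highest was Il33 (13.46 CPM, others 9.922 to 10.32). In replicate 2 of KO 6 h the highest were Igtp (839.7 CPM) and Rps18 (595.8 CPM). In replicate 3 of KO 6 h they were F3 (16.62 CPM, others 6.691 to 7.851), Slc7a1 (109.2 CPM, others 76.34 to 79.95) and Sharpin (26.65 CPM, others 23.08 to 23.43). In replicate 4 of KO 6 h the highest were Arhgap26 (21.5 CPM, others 13.91 to 14.62), Nlrc5 (170.9 CPM, others 156.6 to 157.6) and H2-T22 (354.2 CPM, others 300.8 to 304.1), and the lowest were Ndufa5 (137 CPM, others 170.5 to 173.6) and Fbl (79.1 CPM, others 85.3 to 85.69).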

How the results depend on the processing

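The counts of the KO step stayed within 1.5 times of those reported under every alternative run, except that testing against a 2-fold threshold with glmTreat left 475 genes, 281 higher and 194 lower. Leaving out each library gave 4780 to 5249 calls in the KO step (2282 to 2672 higher, 2354 to 2577 lower), 1508 to 1680 past 2-fold (835 to 982 higher, 621 to 698 lower), 4917 to 5527 in the WT step (2427 to 2741 higher, 2490 to 2786 lower) and 5375 to 5670 at 3 h against 0 h in KO (2586 to 2746 higher, 2755 to 2943 lower). The genotype difference of the step gave 3 genes with no filter on low counts, and 0 to 1 when a library was left out, the 1 without replicate 4 of WT 6 h. With library totals alone, 3 h against 0 h in KO had 1673 genes higher and 6201 lower, so that 675 genes were higher at 3 h and then lower at 12 h, and 2561 lower at 3 h and then higher at 12 h; the cause was not tested. None of the 239 genes followed reversed under the alternatives run.

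The labels do not say what a replicate number marks. Replicate 3 was the male library at both times, and the deviations of KO 12 h and KO 6 h libraries from the group means correlated at 0.141, 0.0707, 0.076 and 0.16 for same-numbered pairs, each the highest for its 12 h library, which is a hint from the data and not the design; not every pair passed 0.1, so the numbers were not taken to pair the libraries. With the replicate block 5656 genes were called in the KO step (2841 higher, 2815 lower), 5994 in the WT step, 6207 at 3 h and 1 for the genotype difference. The block gave 3 monocyte markers higher and 4 lower in place of 1 and 2, with Itgam called (adjusted p = 0.0439), and 2 dendritic cell markers higher in place of 1, with Bst2 called (adjusted p = 0.0456). Depth limits genes of a few CPM.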
